A study of Homo sapiens with 2 samples.

Results

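The 6 genes described here encode enzymes of sterol and fatty acid synthesis, ACLY, PMVK, MVD, TM7SF2, EBP and FADS2. They are 6 of the 14884 genes that the array's annotation names, and they were found by symbol. The members were chosen by their differences between the 2 arrays of the series, so those differences are given as a description and nothing is tested on them. Expression was measured in SNK6 cells, a human NK/T-cell lymphoma line that carries Epstein-Barr virus, after 72 h with romidepsin plus sildenafil (1 array) or with romidepsin without sildenafil (1 array). Romidepsin inhibits class I histone deacetylases and sildenafil inhibits a phosphodiesterase that degrades cyclic GMP. Both cultures received romidepsin and were grown with 500 U/ml interleukin-2 and 10% fetal bovine serum. No untreated or sildenafil-only culture was analysed here, and no source used here states a dose. The comparison addresses what sildenafil adds to romidepsin. With no replicates, no value below has an error and no difference was tested.

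Cells build cholesterol from acetyl-CoA through the mevalonate pathway, whose isoprenoid products are joined to squalene, closed to lanosterol and trimmed to cholesterol by a chain of reductases, demethylases and an isomerase. The same acetyl-CoA is carboxylated and extended to fatty acids, which desaturases and elongases then modify. SREBP transcription factors, released from the endoplasmic reticulum when sterols are scarce, drive many genes of both routes, often beside CCAAT-box and GC-box factors. Dividing lymphoid cells draw on both routes for membranes and for the prenyl groups that anchor signalling proteins.

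The deposited values are log2 signals, 1 per probe set and array, that ran from 0.79 to 12.97 on the combination array and from 0.93 to 13.05 on the romidepsin array. Of the named genes, 10081 reached 3.91, the median over both columns, on their brighter array. All 6 enzymes were among them, each with 1 probe set. Differences are log2 signals of the combination array minus those of the romidepsin array, and the precision is limited by the number of arrays. Of the NK or T cell markers checked, 8 of 11 were named and 7 passed the filter. Log2 signals with and without sildenafil were 8.81 and 8.83 for PRF1, 8.23 and 8.50 for NKG7, and 8.10 and 8.10 for CD2. They were 6.54 and 6.63 for NCAM1, 5.21 and 5.15 for CD7, and 5.09 and 4.62 for TBX21. GNLY passed by the combination array only (3.92 and 3.82), and EOMES did not pass (2.90 and 3.21). Of the markers of other cell types, CD14, LYZ and EPCAM did not pass. Those that passed had, in the same order, 5.14 and 5.19 for BLK and 5.05 and 5.23 for PAX5 (B cell). Signals were 6.61 and 6.72 for CD68 and 4.28 and 4.01 for CSF1R (monocyte or macrophage). For fibroblast or epithelial markers they were 5.13 and 5.43 for KRT8 and 7.38 and 7.04 for KRT18. KRT19 had 3.86 and 4.13, and VIM 9.46 and 9.44, above every NK or T cell marker named. None of the markers that passed differed by 1.5-fold, and their differences lay between -0.30 (KRT8) and 0.47 (TBX21). The part of other cell types in the results below was not tested. RNA came from whole cultures, so fewer cells making a transcript and less of it per cell cannot be told apart.

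ACLY, MVD, TM7SF2 and FADS2 had the higher signal with sildenafil, and PMVK and EBP the lower. The differences were small. None of the 6 differed by 1.5-fold, a size that 1.99% of the 10081 genes reached (1.02% higher and 0.972% lower). At 1.2-fold, 3 of the 6 were higher (MVD, TM7SF2 and FADS2) and 2 lower (PMVK and EBP). Among all 10081 genes 9.71% were at least 1.2-fold higher, 9.63% at least 1.2-fold lower and 19.3% beyond 1.2-fold in either direction. Because the members were chosen for their differences, nothing is read from that comparison.

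**Figure D1:**
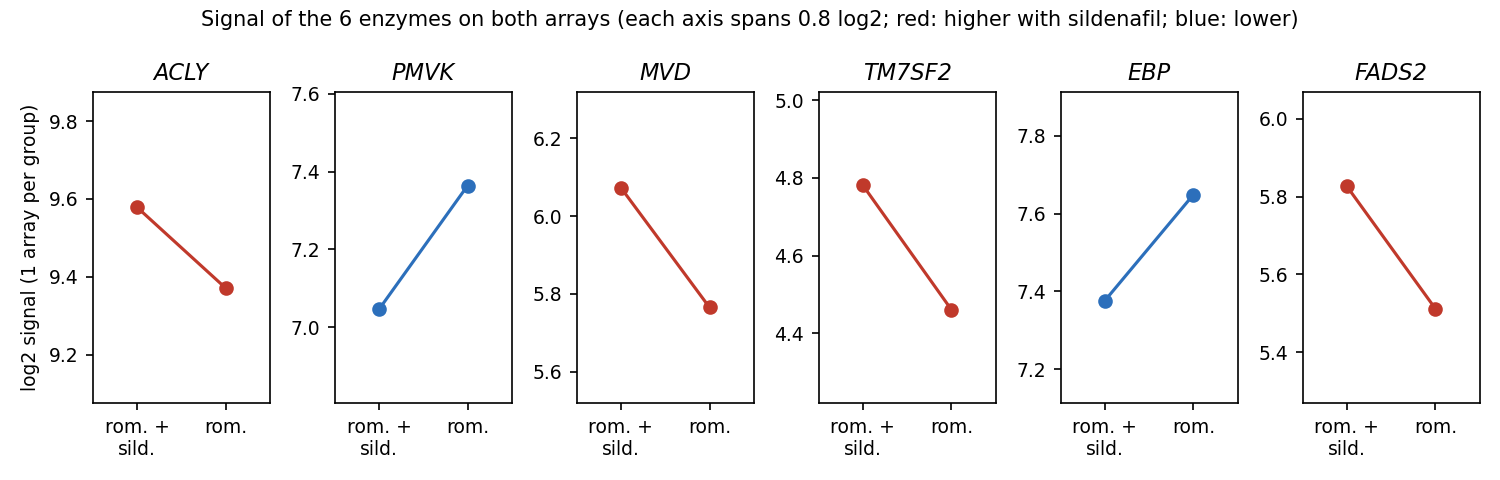
The log2 signal of each enzyme (vertical axis, spanning the same width in every panel) on the romidepsin plus sildenafil array (left point) and the romidepsin array (right point), 1 array per group. ACLY, MVD, TM7SF2 and FADS2 slope down to romidepsin alone, while PMVK and EBP slope up, with steps between 0.21 and 0.32.

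ACLY, ATP citrate lyase, splits cytosolic citrate and so supplies the acetyl-CoA that both routes start from. Its log2 signal was 9.58 with sildenafil and 9.37 with romidepsin alone. The combination was higher by 0.21, or 1.15-fold, the smallest difference of the 6 in fold terms in the deposited values. The ACLY difference was 0.28 after quantile normalization and 0.25 after lowess centring. There the EBP differences, -0.21 and -0.23, were smaller in size. ACLY lay in the brightest decile of genes by mean signal, where differences had an SD of 0.12 over 1008 genes. In that decile 78 genes (7.74%), ACLY included, were at least as far apart in either direction. This SD is a spread over genes and not an error of ACLY.

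PMVK, phosphomevalonate kinase, phosphorylates mevalonate phosphate. Its log2 signal was 7.05 with sildenafil and 7.36 without, a difference of -0.32 (1.25-fold lower with sildenafil). Among the 1008 genes of its decile of signal, differences had an SD of 0.14. Of these genes 40 (3.97%) were at least as far apart, the smallest share of the 6 members in the deposited values.

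MVD, mevalonate diphosphate decarboxylase, takes the product of PMVK and makes isopentenyl diphosphate, the building unit of all isoprenoids. Its log2 signal was 6.07 with sildenafil and 5.77 without, a difference of 0.31 (1.24-fold higher with sildenafil). The genes of its decile had an SD of 0.20, and 112 of 1008 (11.1%) were at least as far apart. These consecutive steps of the mevalonate pathway were on opposite sides, PMVK lower and MVD higher with sildenafil, by about the same amount. Both were chosen by their differences, so the contrast is not read as a result.

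TM7SF2 is a sterol reductase that acts just after lanosterol demethylation. It had a log2 signal of 4.78 with sildenafil and 4.46 without, a difference of 0.32 (1.25-fold higher with sildenafil). It lay in a decile of genes where the SD of differences was 0.26, the widest among the 6 members, and 200 of 1008 genes there (19.8%) were at least as far apart. A difference of this size was therefore common at that signal. LBR, the lamin B receptor of the inner nuclear membrane, catalyses the same reduction, and its signals were 9.31 on the combination array and 9.31 on the romidepsin array (difference 0.0034).

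EBP, the emopamil-binding protein, is the sterol isomerase that moves the ring double bond late in the pathway. Its log2 signal was 7.38 with sildenafil and 7.65 without, a difference of -0.27 (1.21-fold lower with sildenafil). The SD in its decile was 0.14, and 64 of 1008 genes (6.35%) were at least as far apart. With the arrays quantile normalized the difference was -0.21, and with lowess centring -0.23, both under 1.2-fold.

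FADS2 is the desaturase that acts at the start of the route from essential fatty acids to longer polyunsaturated ones. Its log2 signal was 5.83 with sildenafil and 5.51 without, a difference of 0.31 (1.24-fold higher with sildenafil). In its decile of signal the SD was 0.22, and 129 of 1008 genes (12.8%) were at least as far apart. Measured against the spread at their own signal, the deposited differences ranged from 1.24 SD for TM7SF2 to 2.20 SD for PMVK. The fold sizes of TM7SF2 and PMVK were nearly equal. The median difference of each decile, from -0.035 for that of PMVK to 0.047 for that of TM7SF2, was not subtracted. The order of the 6 by this measure was not checked under other scalings.

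**Figure D2:**
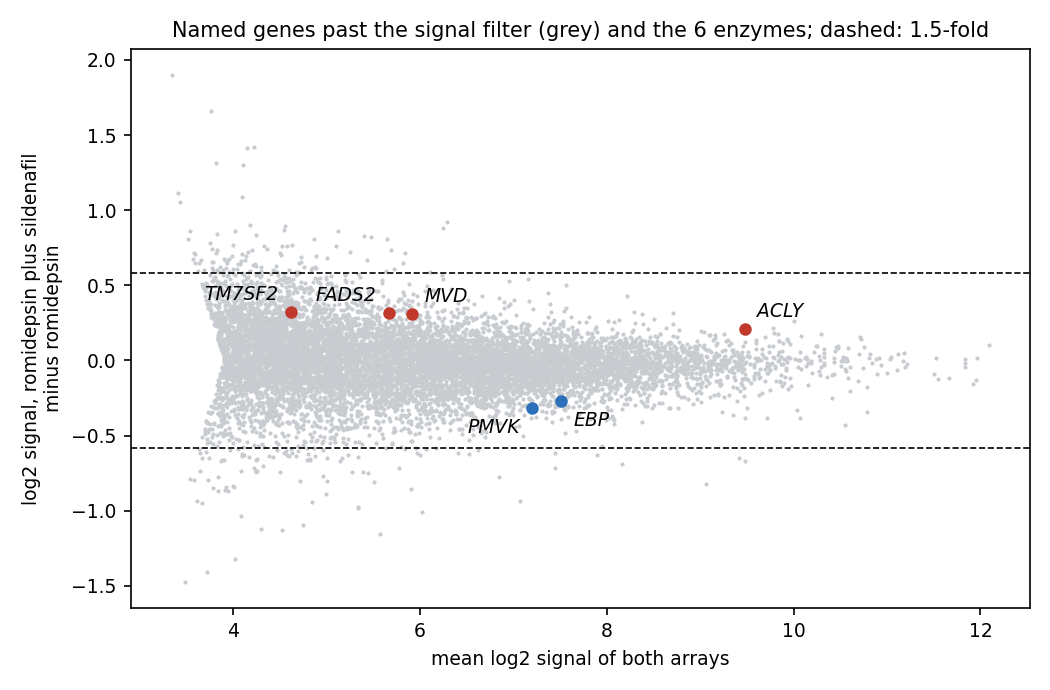
Difference between the arrays (vertical axis, log2, romidepsin plus sildenafil minus romidepsin) against the mean log2 signal of both arrays (horizontal axis) for the 10081 named genes past the filter (grey points) and the 6 enzymes (red higher, blue lower with sildenafil). All 6 lie inside the dashed 1.5-fold lines, and TM7SF2 lies where the grey cloud is widest among the 6.

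The promoter sequences of all 6 genes were in the RefSeq table (GRCh38.p14), with 2 start sites each for ACLY and FADS2 and 1 for the others. The 250 bases before the start of PMVK, MVD and EBP are shown because PMVK and MVD encode successive enzymes, and because MVD and EBP hold the most CCAAT boxes among the 6. Capitals mark CCAAT on either strand, so that the reverse strand reads ATTGG. The PMVK window is chr1:154936720-154936969 on the minus strand, the MVD window chr16:88663092-88663341 on the minus strand and the EBP window chrX:48521558-48521807 on the plus strand, each written 5′ to 3′ along its gene.
PMVK: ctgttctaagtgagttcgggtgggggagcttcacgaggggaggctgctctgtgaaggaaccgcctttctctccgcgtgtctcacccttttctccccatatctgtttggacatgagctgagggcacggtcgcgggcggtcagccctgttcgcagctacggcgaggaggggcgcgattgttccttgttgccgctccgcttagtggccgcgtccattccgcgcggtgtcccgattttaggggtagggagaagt
MVD: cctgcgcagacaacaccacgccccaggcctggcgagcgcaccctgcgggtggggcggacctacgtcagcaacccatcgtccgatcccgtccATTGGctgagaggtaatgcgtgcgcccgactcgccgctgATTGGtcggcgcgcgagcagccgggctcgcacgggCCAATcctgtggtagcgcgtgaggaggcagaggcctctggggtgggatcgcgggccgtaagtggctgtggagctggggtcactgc
EBP: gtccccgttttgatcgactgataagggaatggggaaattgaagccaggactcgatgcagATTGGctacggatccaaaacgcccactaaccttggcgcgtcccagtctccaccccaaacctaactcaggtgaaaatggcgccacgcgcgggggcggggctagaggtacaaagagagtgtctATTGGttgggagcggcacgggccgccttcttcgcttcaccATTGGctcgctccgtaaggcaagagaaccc

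The MVD window held 3 CCAAT boxes, with first bases 159, 120 and 85 bases before the start. The EBP window held 3 as well, 191, 70 and 30 bases before its start. TM7SF2 had 1, ACLY 2, and PMVK and FADS2 0. The windows of the 2 ACLY start sites share 179 bases and both of its boxes, and those of FADS2 share 49 bases. Of all 35116 promoter windows of 250 bases in the table, 32.0% held the box. The GC box GGGCGG, searched on both strands, was in 7 of the 8 windows of the 6 genes, and in 42.6% of all windows. Each gene had it in at least 1 window, and the window of the first FADS2 start site had none. A sterol element spelled TCACNCCAC, searched on both strands, was in 0 of the 8 and in 0.883% of all windows. No hits of different motifs overlapped in these 8 windows.

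The other genes of sterol synthesis gave context for PMVK, MVD, TM7SF2 and EBP. Of 22 listed genes 16 were named and 15 passed the filter, with 3 higher with sildenafil, 12 lower and a median difference of -0.09. In all 10081 genes 47.2% were higher by any amount, 52.4% were lower and the median was -0.01. Leaving out the 4 sterol members, 10 of 11 were lower, 8 of 11 after quantile normalization, 9 of 11 after lowess centring and 11 of 11 after median centring. These counts take FDPS as lower by its brighter probe set. By its other probe set, an alternative added after seeing the data, they were 9, 7, 8 and 10 of 11 in the same order. The shares of all genes that were lower were 44.4%, 48.3% and 59.7% under these 3 scalings. None of the 11 reached 1.2-fold in the deposited values, against 19.3% of all 10081 genes, and 1 did after median centring. The 4 members left out were chosen by their differences, so the counts over the other 11 depend on that choice. Nothing is read from them.

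Around PMVK and MVD, the steps of the mevalonate pathway had small differences. MVK, mevalonate kinase, which acts just before PMVK, differed by -0.10, and IDI1, the isomerase just after MVD, by -0.10. HMGCS1, which makes HMG-CoA, differed by -0.09 and ACAT2, which joins acetyl-CoA units, by -0.09. FDPS, farnesyl diphosphate synthase, differed by -0.17 by its brighter probe set and by 0.13 by its other probe set, so its direction is not settled. Of the 9 genes of the list 7 passed the filter (1 higher and 6 lower, median -0.10), or 2 higher and 5 lower with FDPS by its other probe set (median -0.09). MVD was the highest of them and PMVK the lowest. Both were chosen by their differences, so these ranks are not read as a result.

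After squalene, 8 of 13 listed genes passed the filter (2 higher and 6 lower, median -0.07). MSMO1, a sterol methyl oxidase, differed by -0.24, from signals of 9.13 with sildenafil and 9.38 without, just under 1.2-fold. NSDHL, which acts with MSMO1 in demethylation, differed by -0.13, and HSD17B7, a ketoreductase of the same complex, by -0.05. SQLE, squalene epoxidase, differed by -0.013 and DHCR7, a reductase after EBP, by -0.08. EBP was the lowest and TM7SF2 the highest of this list, ranks that the choice of members by difference favoured. FDFT1 and LSS were not analysed here.

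**Figure D3:**
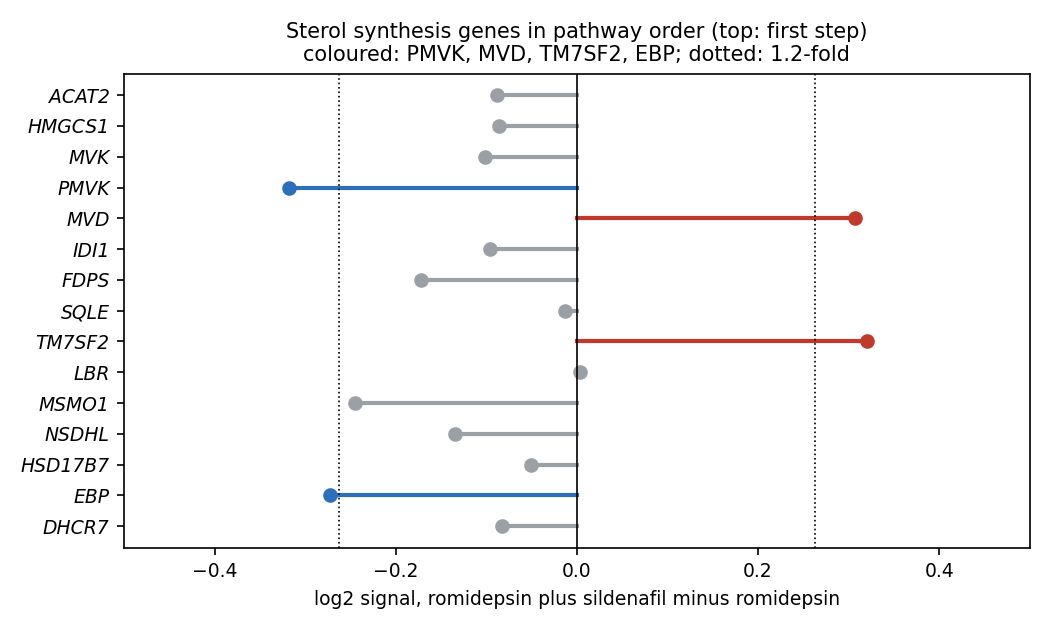
Difference between the arrays (horizontal axis, log2, romidepsin plus sildenafil minus romidepsin) for the 15 sterol synthesis genes past the filter, from early steps (top) to late ones (bottom), 1 array per group. PMVK and EBP (blue) lie below -0.26 and MVD and TM7SF2 (red) above 0.26, the dotted 1.2-fold lines, while the 11 grey genes lie between -0.24 and 0.0034.

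The genes of fatty acid synthesis around ACLY showed both directions. Of 15 listed, 10 were named and 9 passed the filter, with 4 higher, 5 lower and a median of -0.03. ACSS2, the other cytosolic source of acetyl-CoA, differed by 0.23 (3.99 with sildenafil and 3.76 without). Its romidepsin signal lay under the filter level. ACACA, acetyl-CoA carboxylase, differed by -0.09 and FASN, fatty acid synthase, by 0.03, so the 2 enzymes after ACLY lay on either side of 0. CBR4, a subunit of a ketoacyl reductase of mitochondrial fatty acid synthesis, was lowest at -0.40 (6.14 with sildenafil and 6.54 without). It was the only gene of these 9 beyond 1.2-fold in the deposited values, against 19.3% of all 10081 genes.

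Among the desaturases and elongases, 15 of 18 were named and 10 passed, with 5 higher, 5 lower and a median of 0.0062. FADS2 was the highest of them, a rank that its choice by difference favoured. Its chromosomal neighbours belong to the same gene family. FADS1, the desaturase that acts later in the same route, had signals of 7.08 with sildenafil and 6.94 without (difference 0.14). FADS3 had 5.62 and 5.99 (difference -0.37, or 1.29-fold lower with sildenafil), the lowest of the list. The 3 genes of this cluster were therefore not on the same side. SCD, stearoyl-CoA desaturase, differed by 0.16 by its brighter probe set and by -0.02 by the other.

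**Figure D4:**
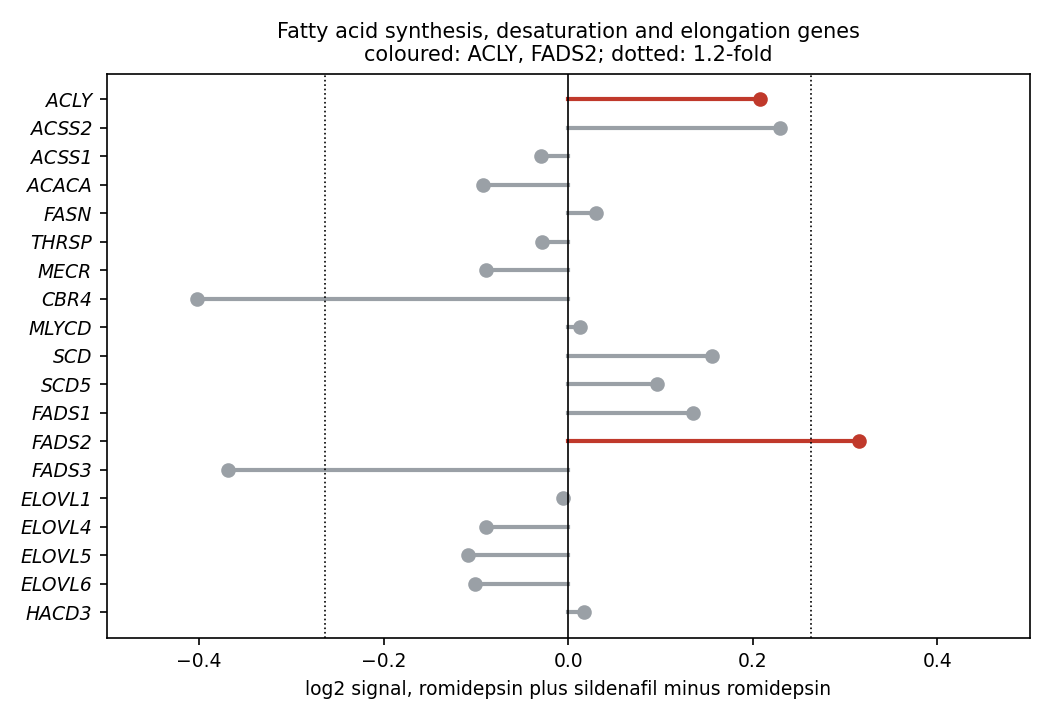
Difference between the arrays (horizontal axis, log2, romidepsin plus sildenafil minus romidepsin) for the 19 fatty acid synthesis, desaturation and elongation genes past the filter, 1 array per group. ACLY (0.21) and FADS2 (0.31) are in red, and the grey genes CBR4 and FADS3 lie beyond the dotted 1.2-fold line on the lower side.

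Of the 8 genes of SREBP control and sterol uptake past the filter, only INSIG2 was beyond 1.2-fold, against 19.3% of all 10081 genes. That share pools all levels of signal and is not matched to the list. The SD of differences was 0.34 in the dimmest decile and 0.12 in the brightest. SREBF2, which encodes the SREBP of sterol genes, differed by 0.07 and SREBF1, whose SREBP acts mainly on fatty acid genes, by -0.04. SCAP, the escort of both, differed by 0.04 and INSIG1, which retains SCAP in the endoplasmic reticulum and is itself an SREBP target, by -0.03. INSIG2, which also retains SCAP, had signals of 5.97 with sildenafil and 6.31 without (difference -0.34), and RNF145, a ubiquitin ligase, was highest at 0.17. Of 17 genes in this list 8 were named and passed, with 3 higher, 5 lower and a median of -0.02.

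In the 4 remaining lists, SOAT2 was the only gene of the 20 past the filter beyond 1.2-fold, against 19.3% of all 10081 genes. That share is again not matched for signal. Of 14 genes of LXR signalling and sterol storage or efflux, 5 passed (2 higher and 3 lower, median -0.02). SOAT2, which esterifies cholesterol for storage, differed by -0.30. Its signals were near the filter level (4.13 with sildenafil and 4.43 without), and the SD of differences in its decile was 0.26. SOAT1, which catalyses the same reaction, differed by 0.08. In the prenyl branch 3 of 12 passed (1 higher and 2 lower, median -0.04), from -0.15 for NUS1 to 0.03 for DHDDS, the subunits of a dolichol-forming prenyltransferase. Of 16 genes that use acyl-CoA in lipid assembly 8 passed (3 higher and 5 lower, median -0.06), from -0.24 for ACSL5, an acyl-CoA synthetase, to 0.16 for LPIN1, a phosphatidate phosphatase. Of 12 lipid master regulators 4 passed (3 higher and 1 lower, median 0.04), from -0.19 for MLXIPL, a glucose-responsive transcription factor, to 0.12 for its partner MLX.

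Likeness between genes can rest here only on 1 difference over 2 arrays. Among the other 61 lipid genes past the filter, the nearest difference to that of PMVK was SOAT2 (-0.30), to EBP was MSMO1 (-0.24), and to ACLY was ACSS2 (0.23). TM7SF2 and FADS2 were nearest to each other (0.32 and 0.31), and MVD was nearest to FADS2. The members were chosen by these same differences, and the highest of the 56 other lipid genes past the filter was ACSS2. Nothing is therefore read from these matches.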

How the data were processed

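Total RNA of SNK6 cells was amplified (whole-transcript kit), biotin-labelled and run on expression arrays, per the labels' protocols. The deposited values are log2 signals of 53617 probe sets on 2 arrays. The base was taken as 2 because the values reach 13.05, above the natural log (11.1) and below the log2 (16) of a 16-bit ceiling. No source used here states the summarisation or normalization. The sorted columns differ by at most 0.15, so a change shared by most transcripts would not show.

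The samples were grouped by title, with the short form beside romidepsin read as sildenafil, the only other drug in the treatment protocol. The platform annotation gave 16098 probe sets 1 gene symbol, and the other 37519 were not used. The probe set with the highest mean stood for a gene. Genes were counted at 1.5-fold and 1.2-fold, without a test. Spread was taken over deciles of mean signal. The enzymes, the 9 lists (126 genes) and the fixed genes were chosen with earlier results of these data known. Named are the 6 enzymes, the fixed genes, the extremes of each list and the nearest differences. Steps beside the enzymes (MVK, IDI1, ACAT2, NSDHL, HSD17B7, SCAP) were named after their values were seen. Alternatives changed the filter, the scaling and the handling of probe sets. The code was tested on simulated data. Promoters and gene order came from RefSeq (GRCh38.p14). Python 3.11.15 was used with pandas 2.3.3, numpy 2.4.6 and statsmodels 0.14.6.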

Additional observations from a re-analysis of the deposited data

How the results depend on the processing

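The 6 enzymes kept their direction under the 3 scalings (18 values), and no value moved by more than 0.071. The 2 alternatives on probe sets cannot move a gene with 1 probe set and say nothing about the 6. Those that moved by 0.05 or more were EBP, at -0.21, and ACLY, at 0.28, under quantile normalization, which put EBP under 1.2-fold and ACLY above it. Lowess centring also put EBP (-0.23) under 1.2-fold. Under quantile normalization the list medians moved to -0.013 (squalene to cholesterol), 0.061 (desaturation and elongation), 0.044 (SREBP control), 0.023 (prenyl branch), -0.0096 (acyl-CoA use) and 0.091 (lipid master regulators). Without a filter the medians of the LXR genes and of the master regulators were -0.081 and 0.098. All other list medians moved by less than 0.05 under every alternative tried. At 1.5-fold, 103 genes were higher and 98 lower, against 78 and 116 with median centring. Without a filter the counts at 1.5-fold were 223 higher and 156 lower, and at 1.2-fold 1862 higher and 1447 lower. With a filter at 5, 28 were higher and 45 lower at 1.5-fold, and 363 and 608 at 1.2-fold, from fewer genes tested. The deposited values gave 979 higher and 971 lower at 1.2-fold. No paired analysis was possible because each group holds 1 array. Without detection calls or a background level, how far the members stand above background is unknown, and with 1 array per group batch and treatment cannot be told apart.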

Other observations

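The protein-coding genes next to the 6 enzymes in the RefSeq gene order were looked up after the members' values had been seen. Of the 12 neighbours 7 were named on the array and 6 passed the filter. PBXIP1, next to PMVK, differed by -0.01 and SNAI3, next to MVD, by 0.03. VPS51, a trafficking subunit gene next to TM7SF2, differed by -0.07 and KLHL11, next to ACLY, by -0.08. Of the 6 neighbours past the filter only FADS3, next to FADS2, was beyond 1.2-fold, against 19.3% of all 10081 genes. ODAD4, on the other side of ACLY, had signals of 3.61 with sildenafil and 2.88 without, both under the filter level. No neighbour of EBP was named.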
